A study of Mus musculus with 9 samples.

Results

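*Dscam*, *Dscaml1*, *Sdk1*, *Sdk2* and *Cntn1* to *Cntn6* are 10 genes of the Dscam, Sidekick and contactin families of recognition molecules. They were taken by gene symbol from the 25239 gene names that all 9 gene tables of this study list, and all 10 were found in every table. The tables come from bulk RNA-Seq of whole retinas of C57BL/6J mice at P42, with the pair of retinas of 1 mouse in each library. The groups were 3 +/+ mice, 3 *Rbpms*-CreERT2/+ mice (Cre/+) and 3 *Rbpms*-CreERT2/CreERT2 mice (Cre/Cre), taken from the same litters according to the design text. The knock-in places P2A-CreERT2, a tamoxifen-inducible Cre recombinase behind a self-cleaving peptide, in frame at the end of the coding sequence of *Rbpms*, so the promoter of *Rbpms* drives it, in the retina mainly in retinal ganglion cells. All knock-in mice carry the same engineered allele, and the labels state no tamoxifen for these mice.

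The inner plexiform layer of the retina is the neuropil in which bipolar, amacrine and ganglion cells meet, and it is divided into sublaminae, each with its own set of synaptic partners. Dscams and Sidekicks are transmembrane proteins with immunoglobulin and fibronectin domains that bind their own kind across cells, and contactins have the same domains and are held to the membrane by a lipid anchor. In the chick, members of these 3 families mark different sublaminae and steer processes to them. In the mouse, Dscams are also known for keeping the cell bodies and dendrites of 1 neuronal type apart, and Sidekick 2 for joining an amacrine cell type to its ganglion cell partner. Since many of these genes are used by ganglion cells, the comparison of mice with 0, 1 and 2 knock-in alleles asks whether their levels in the adult retina differ with the allele.

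*Rbpms*, the targeted gene, was at 41.7 ± 2.85 TPM in +/+, 32.2 ± 0.888 TPM in Cre/+ and 21.0 ± 2.80 TPM in Cre/Cre (SD, n = 3 each), and the 3 genotypes did not overlap. TPM is a level per length of transcript that sums to 1000000 in each library. The aligned bases were 4.05 to 4.65 gigabases per library. Rod, cone, bipolar, amacrine, horizontal and Müller glial markers were present in all 9 libraries labelled retina. The 9 ganglion cell markers, *Rbpms* among them, summed to 1345 to 1378 TPM in +/+, 1271 to 1308 TPM in Cre/+ and 986 to 1183 TPM in Cre/Cre, and amacrine markers to 871 to 905, 872 to 913 and 793 to 894 TPM. The lowest Cre/Cre sums of both lists, 986 and 793 TPM, were those of Cre/Cre replicate 1. Cre/Cre replicate 1 stood apart, with 9.21% of its TPM on the ribosomal RNA precursor Rn45s against 0.0827% to 0.336% elsewhere and with a median ratio to the geometric mean of all libraries of 0.917 against 0.985 to 1.03. *Xist* was at 2.08 to 3.16 TPM in Cre/+ replicate 3, Cre/Cre replicate 1 and Cre/Cre replicate 3, and at 516 to 585 TPM in the other 6 libraries. No +/+ library was among the low ones, so differences that go with *Xist* are partly mixed with genotype and with the number of knock-in alleles. In whole-retina RNA, fewer cells of a type and less RNA per cell cannot be told apart. By immunostaining of whole-mount retinas, the study found no significant difference between genotypes in the number of RBPMS-positive or POU4F1-positive ganglion cells.

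All 10 genes were expressed in the adult retina, and *Dscaml1* was 60.4-fold above *Cntn3* on average. The highest was *Dscaml1*, at 94.4 ± 6.83 TPM (SD, n = 9, as for all levels over the 9 libraries), above 85.3% of the 15198 genes with a mean of at least 1 TPM. *Cntn1* followed at 81.6 ± 7.84 TPM and *Cntn4* at 45.0 ± 5.61 TPM. Below these came *Dscam* at 22.9 ± 1.91 TPM, *Cntn6* at 14.3 ± 2.09 TPM, *Sdk2* at 10.03 ± 0.933 TPM and *Sdk1* at 9.94 ± 1.42 TPM. *Cntn2* at 6.00 ± 0.629 TPM, *Cntn5* at 5.48 ± 0.685 TPM and *Cntn3* at 1.62 ± 0.349 TPM closed the order.

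**Figure D1:**
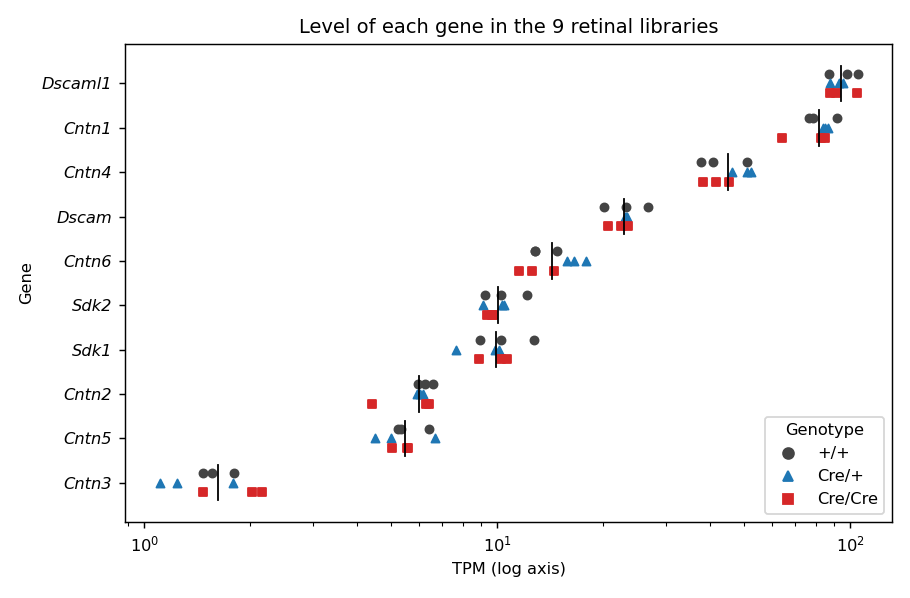
TPM (log axis) of each gene in each of the 9 libraries, in the order of the mean over all libraries, which is the vertical line. Symbols give the genotype (3 libraries each). The genes form a ladder from *Dscaml1* at 94.4 TPM to *Cntn3* at 1.62 TPM, in which *Sdk2* and *Sdk1*, and *Cntn2* and *Cntn5*, lie on top of each other.

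The order in TPM was nearly the same in every library. Each of the 9 pairs of neighbours was compared within libraries, with a two-sided exact permutation test that flips the sign of the log2(TPM + 1) difference. The pairs were set by the mean TPM of these same libraries, so the p-values speak only to how regular a difference was between libraries. For 7 of the 9 pairs the higher gene was higher in 9 of 9 libraries (exact p = 0.00391, the smallest that 9 libraries allow). The neighbours that could not be ordered were the Sidekicks, of which *Sdk2* was higher in 4 libraries and *Sdk1* in 5 (mean difference 0.02, exact permutation p = 0.832), and *Cntn2* with *Cntn5*, of which *Cntn2* was higher in 7 libraries (mean difference 0.11, exact permutation p = 0.141). The 2 libraries in which *Cntn5* exceeded *Cntn2* were Cre/+ replicate 3 and Cre/Cre replicate 1. Without Cre/Cre replicate 1 the difference was 0.16 (exact permutation p = 0.0234, 8 libraries). Leaving out 1 of the 2 libraries with the reverse order favours a smaller p, so this value does not order the pair.

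The level of *Cntn1*, and less so that of *Cntn4*, depended on which deposited quantity was read. The tables also give the coverage, or how many reads lie over a base of the gene on average, which can be divided by the aligned gigabases of the library. For *Dscam*, *Dscaml1*, *Sdk1*, *Sdk2*, *Cntn2*, *Cntn3*, *Cntn5* and *Cntn6* this depth-scaled coverage was 99.8% to 100% of the deposited FPKM, the level per length and depth from which TPM is scaled. For *Cntn1* it was 12.7% to 12.8% and for *Cntn4* 44.2% to 48.7%. Ratios this low were uncommon, since 0.766% to 0.885% of the rows of a library with a coverage above 5 were under 15% and 4.65% to 5.03% were under 50%. By coverage per gigabase, *Dscaml1* (27.2) stayed first and *Dscam* (6.61) was next. *Cntn4* (6.06) and *Cntn6* (4.14) followed, and *Cntn1* (2.998) dropped below both, just above *Sdk2* (2.89) and *Sdk1* (2.87). *Dscaml1* was thus 1.17 ± 0.121-fold above *Cntn1* by TPM and 9.16 ± 0.936-fold above it by coverage, and *Cntn1* was 3.57 ± 0.329-fold above *Dscam* by TPM, where *Dscam* was 2.22 ± 0.221-fold above *Cntn1* by coverage (SD, n = 9). GENCODE lists 3 coding transcripts of *Cntn1* and 6 of *Cntn4*, and 1 to 4 of each of the other genes, and their part in the gap between TPM and coverage was not tested. The ratio of *Cntn1* hardly varied between libraries, so its comparisons between genotypes do not turn on this choice. The shares of the families do. Of the TPM that the 10 genes had together, contactins held 52.8%, Dscams 40.3% and Sidekicks 6.87% on average. Of their summed coverage per gigabase, contactins held 30.0%, Dscams 59.8% and Sidekicks 10.2%, so the order of contactins and Dscams reversed.

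**Figure D2:**
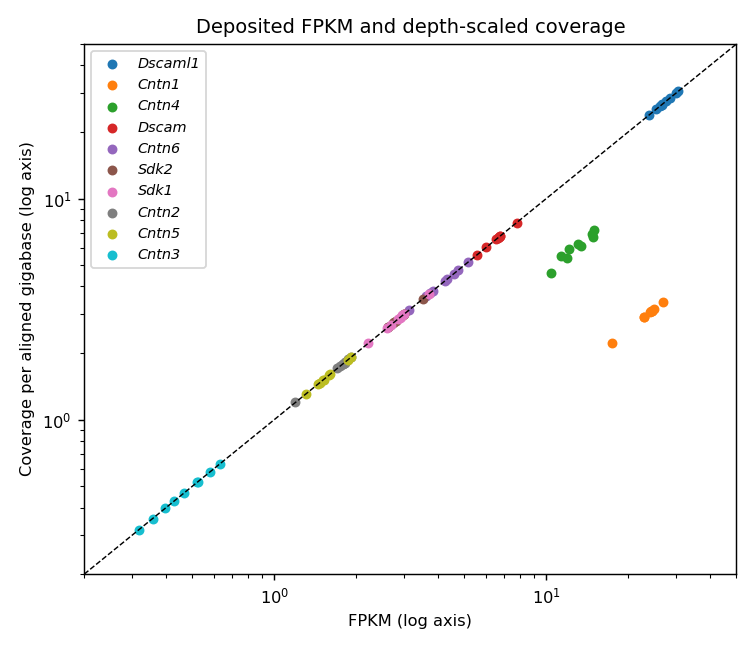
Deposited FPKM (x) against coverage per aligned gigabase (y), both on log axes, for each gene in each of the 9 libraries, with a dashed line where they are equal. All genes lie on the line except *Cntn1*, at 12.7% to 12.8% of it, and *Cntn4*, at 44.2% to 48.7%.

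Members of the Dscam and contactin families were unequal in level. *Dscaml1*, the paralog known for spacing rod bipolar cells and AII amacrine cells, exceeded *Dscam*, known for spacing dopaminergic amacrine cells and ganglion cell types, 4.13 ± 0.212-fold (range 3.78 to 4.44, n = 9). The Sidekicks were level, with 0.992 ± 0.114 of *Sdk1* per *Sdk2* (range 0.738 to 1.11). Among contactins, *Cntn1* held 53.0% of the summed TPM, *Cntn4* 29.2%, *Cntn6* 9.30%, *Cntn2* 3.91%, *Cntn5* 3.58% and *Cntn3* 1.06%. By coverage per gigabase the order was another, with *Cntn4* at 35.6%, *Cntn6* at 24.3%, *Cntn1* at 17.7%, *Cntn2* at 10.2%, *Cntn5* at 9.38% and *Cntn3* at 2.79%.

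The genes lie on 7 chromosomes of mm10. *Dscam* is on the minus strand of chromosome 16, from 96592079 to 97170735. *Dscaml1* is on the plus strand of chromosome 9 (45430353 to 45753713), a chromosome it shares with *Cntn5* (minus strand, 9660891 to 10904775). *Sdk1* is on the plus strand of chromosome 5 (141241534 to 142213791) and *Sdk2* on the minus strand of chromosome 11 (113780172 to 114067029). *Cntn1* is on the plus strand of chromosome 15 (92051165 to 92341967) and *Cntn2* on the minus strand of chromosome 1 (132509425 to 132542940). The other contactins lie on chromosome 6, *Cntn3* on the minus strand (102163306 to 102464667), followed on the plus strand by *Cntn6* (104493044 to 104863405) and *Cntn4* (105677667 to 106700135). *Cntn2* spans 33.5 kb, and the other 9 genes span 286.9 to 1243.9 kb. *Dscaml1* overlaps 4833428L15Rik, a row of at most 7.10 TPM. The libraries were made strand-specific, but whether reads of this overlap were kept apart was not tested. Shared sequence was sparse, since 44 of the 45 pairs of genes had no stretch of 31 bases in common in their coding transcripts and *Cntn3* and *Sdk2* had 2.

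The Dscams did not pass the test in either knock-in genotype. *Dscam* was at 23.2, 20.1 and 26.8 TPM in +/+, at 23.0, 23.3 and 23.2 TPM in Cre/+, and at 20.6, 22.4 and 23.5 TPM in Cre/Cre. All knock-in libraries lay within the +/+ range. Its log2 fold change on the log2(TPM + 1) scale was 0.00 in Cre/+ (SE 0.11, 95% interval -0.23 to 0.22) and -0.06 in Cre/Cre (interval -0.29 to 0.16), each against +/+. *Dscaml1* was at 97.9, 87.3 and 105 TPM in +/+, at 95.2, 87.9 and 92.8 TPM in Cre/+, and at 87.8, 91.0 and 104 TPM in Cre/Cre, again within the +/+ range. Its log2 fold changes were -0.07 in Cre/+ (SE 0.09, interval -0.25 to 0.12) and -0.03 in Cre/Cre (interval -0.22 to 0.15), the narrowest intervals of the 10 genes. The ratio between these paralogs had a slope per knock-in allele of -0.01 (log2 scale, exact permutation p = 0.638 over 1680 arrangements, 1 of 3 ratios tested).

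The Sidekicks, homophilic molecules that pair synaptic partners, also overlapped between genotypes. *Sdk1* was at 10.3, 8.97 and 12.7 TPM in +/+, at 7.63, 10.1 and 9.89 TPM in Cre/+, and at 10.7, 8.89 and 10.3 TPM in Cre/Cre. Its log2 fold change in Cre/+ was -0.19 (SE 0.15, interval -0.50 to 0.13). It was -0.07 without Cre/+ replicate 1, the library with the lowest *Sdk1*, -0.06 without +/+ replicate 3, the highest, and -0.29 without +/+ replicate 2. *Sdk2* was at 10.2, 9.23 and 12.1 TPM in +/+, at 10.3, 9.12 and 10.5 TPM in Cre/+, and at 9.65, 9.35 and 9.71 TPM in Cre/Cre. The highest *Sdk1* and the highest *Sdk2* value were those of +/+ replicate 3, in which *Dscam* and *Dscaml1* were highest as well. The ratio of *Sdk1* to *Sdk2* had a slope per allele of 0.02 (exact permutation p = 0.833).

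*Cntn6*, also known as NB-3, was the member with the smallest p in Cre/+ retinas. It was at 14.8, 12.8 and 12.8 TPM in +/+, at 15.7, 17.9 and 16.5 TPM in Cre/+, and at 11.6, 14.5 and 12.5 TPM in Cre/Cre. The 3 Cre/+ libraries were above all others, while +/+ and Cre/Cre overlapped. The log2 fold change in Cre/+ was 0.29 (SE 0.12, interval 0.05 to 0.54), with an unadjusted p of 0.0221 and an adjusted p of 0.409 in limma, so it did not pass. That of Cre/Cre against +/+ was -0.07 (interval -0.31 to 0.18), and that of Cre/Cre against Cre/+ was -0.36 (SE 0.12, unadjusted p = 0.00687, adjusted p = 0.673 in limma). Over 18 alternative analyses the value in Cre/+ stayed between 0.23 and 0.36, and its unadjusted p was above 0.05 without +/+ replicate 2, +/+ replicate 3 or Cre/+ replicate 2. With *Xist* as a covariate it was 0.34.

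*Cntn4*, the contactin known for guiding ganglion cell axons to an accessory visual target together with amyloid precursor protein, had a like order of genotypes. It was at 51.0, 37.7 and 40.9 TPM in +/+, at 46.4, 51.0 and 52.2 TPM in Cre/+, and at 38.4, 41.7 and 45.3 TPM in Cre/Cre. The +/+ libraries spanned nearly the whole range, and the Cre/Cre libraries lay below all Cre/+ libraries. The log2 fold change was 0.21 in Cre/+ (SE 0.10, interval -0.01 to 0.43, adjusted p = 0.47 in limma), -0.04 in Cre/Cre (interval -0.26 to 0.18), and -0.25 for Cre/Cre against Cre/+ (unadjusted p = 0.0285, adjusted p = 0.74 in limma). Over 18 alternative analyses the value for Cre/Cre against Cre/+ stayed between -0.31 and -0.19. Its unadjusted p was above 0.05 without Cre/+ replicate 2, Cre/+ replicate 3, Cre/Cre replicate 1 or Cre/Cre replicate 2. By coverage per gigabase, the Cre/+ libraries (6.10 to 7.24) and the Cre/Cre libraries (4.58 to 6.21) of *Cntn4* overlapped, whereas *Cntn6* was higher in each Cre/+ library (4.57 to 5.15) than in any other (3.12 to 4.31). Without +/+ replicate 1, the highest of its group, the value in Cre/+ was 0.33 with an adjusted p of 0.281 in limma, and without +/+ replicate 2, the lowest, it was 0.12 with an adjusted p of 0.786. These are its extremes over the alternatives, among which the limma adjusted p reached 0.882. Over the 9 libraries, log2(TPM + 1) of *Cntn4* and *Cntn6* had a Pearson r of 0.81, and *Cntn6* was 0.319 ± 0.027 of *Cntn4* in TPM and 0.684 ± 0.053 of it in coverage per gigabase (SD, n = 9).

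**Figure D3:**
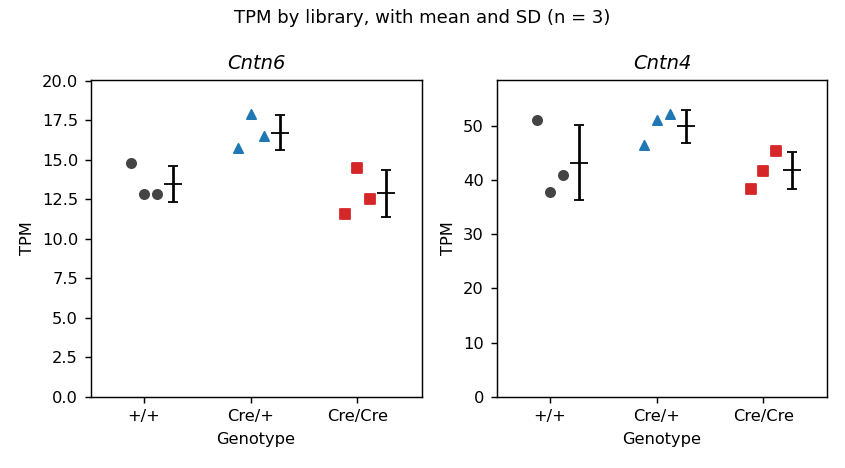
TPM of *Cntn6* (left) and *Cntn4* (right) in each library by genotype, with the mean and SD (n = 3) beside the points. The Cre/+ libraries of *Cntn6* (15.7 to 17.9 TPM) are above all others, and those of *Cntn4* (46.4 to 52.2 TPM) are above the Cre/Cre libraries and overlap +/+.

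The remaining contactins showed no separation. *Cntn1*, the Caspr partner at the axonal junctions that flank nodes of Ranvier, was at 92.0, 76.7 and 78.6 TPM in +/+, at 83.6, 86.5 and 85.0 TPM in Cre/+, and at 64.3, 82.7 and 84.6 TPM in Cre/Cre. *Cntn2*, the axonal contactin TAG-1, was at 6.56, 5.97 and 6.23 TPM in +/+, at 6.15, 5.92 and 6.07 TPM in Cre/+, and at 4.42, 6.42 and 6.30 TPM in Cre/Cre. The lowest value of both was that of Cre/Cre replicate 1, the library rich in Rn45s. Their log2 fold changes in Cre/Cre were -0.10 (*Cntn1*, interval -0.31 to 0.12) and -0.13 (*Cntn2*, interval -0.45 to 0.19), and both turned to 0.03 and 0.02 without that library. *Cntn3* was at 1.80, 1.56 and 1.47 TPM in +/+, at 1.79, 1.24 and 1.11 TPM in Cre/+, and at 1.47, 2.16 and 2.02 TPM in Cre/Cre. It was the only member with a positive log2 fold change in Cre/Cre, 0.14 with the widest interval (-0.30 to 0.57), on a scale that understates changes of so low a gene. *Cntn5*, used by direction-selective ganglion cells in the ON sublaminae, was at 6.40, 5.33 and 5.23 TPM in +/+, at 4.50, 5.01 and 6.68 TPM in Cre/+, and at 5.60, 5.04 and 5.56 TPM in Cre/Cre, with log2 fold changes of -0.07 and -0.05. The ratio of *Cntn1* to the mean of the other contactins had a slope per allele of -0.03 (exact permutation p = 0.171).

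**Figure D4:**
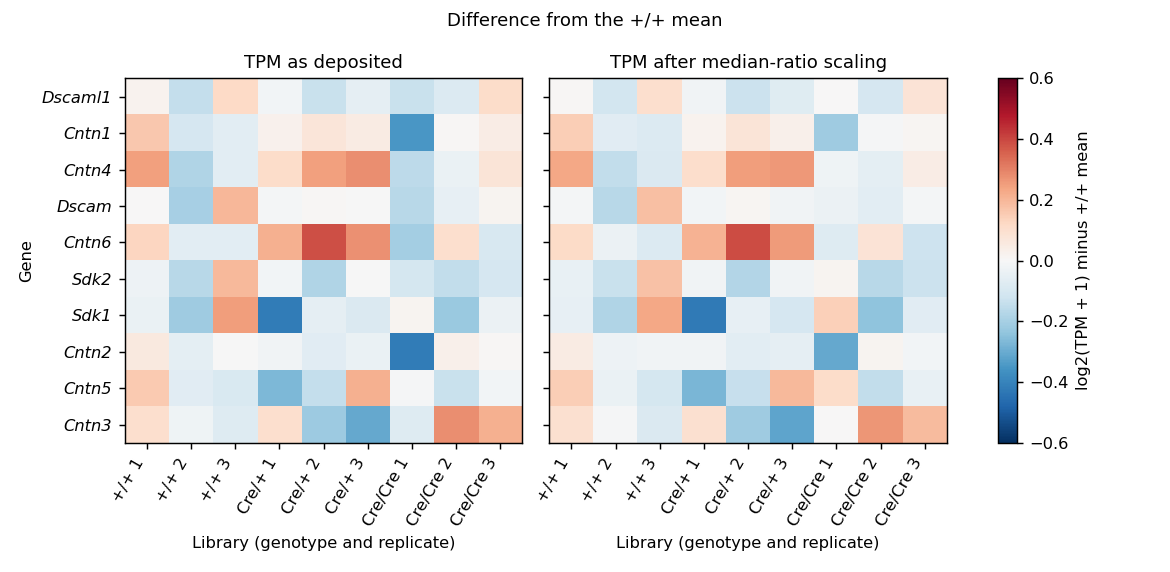
Difference of log2(TPM + 1) from the +/+ mean for each gene (rows) and library (columns), with TPM as deposited (left) and after median-ratio scaling (right). *Cntn6* is high in the 3 Cre/+ libraries, +/+ replicate 3 is high in *Dscam*, *Sdk1* and *Sdk2*, and the low values of *Cntn1* (-0.35) and *Cntn2* (-0.42) in Cre/Cre replicate 1 shrink to -0.21 and -0.31 after scaling.

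Across the 10 genes, 0 were called in any comparison with adjusted p-values limited to 0.05 in limma, which called 0.00658% of all 15198 genes tested in Cre/+ and in Cre/Cre against +/+, 0.0132% in Cre/Cre against Cre/+ and 0.00658% in the trend over knock-in alleles. At an unadjusted p under 0.05 the members numbered 1 in Cre/+ (*Cntn6*, 10.7% of all genes), 0 in Cre/Cre (6.97% of all genes), 2 in Cre/Cre against Cre/+ (*Cntn4* and *Cntn6*, 6.58% of all genes) and 0 in the trend (6.24% of all genes). Genotypes that did not overlap in TPM were found for 1 of 10 members in Cre/+ against +/+ (*Cntn6*, higher), where 22.2% of all genes did so, for 0 in Cre/Cre against +/+ (10.8%) and for 2 in Cre/Cre against Cre/+ (*Cntn4* and *Cntn6*, lower, 12%). These shares do not set the members apart from the other genes. In Cre/+, 7 of 10 log2 fold changes were below 0 with a median of -0.05, beside 49.6% and 0.00 over all genes. In Cre/Cre, 9 of 10 were below 0 with a median of -0.06, beside 57.7% and -0.02 over all genes. Without Cre/Cre replicate 1, 4 of 10 were below 0 with a median of 0.01, beside 43.8% and 0.02 over all genes. With median-ratio scaling the median of the members in Cre/Cre was -0.04 and that of all genes 0.00. All 95% intervals against +/+ lay between -0.58 and 0.57, inside a 2-fold change of TPM + 1. For *Cntn3*, at 1.62 TPM, the interval in Cre/+ does not leave out a 2-fold change of TPM itself.

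**Figure D5:**
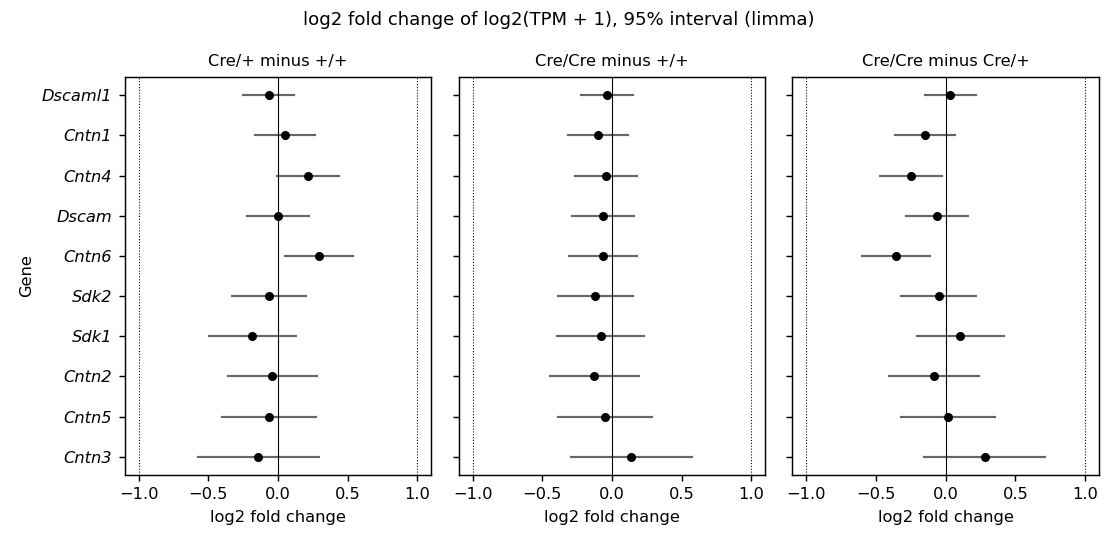
log2 fold change (points) and 95% interval (bars, limma on log2(TPM + 1)) of the 10 genes for Cre/+ against +/+, Cre/Cre against +/+ and Cre/Cre against Cre/+. Dotted lines mark a 2-fold change of TPM + 1. All intervals stay inside the dotted lines, and those of *Cntn6* in the left and right panels and of *Cntn4* in the right panel leave out 0. For *Cntn3*, the lowest gene, the intervals in the left and right panels do not leave out a 2-fold change of TPM itself.

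The summed TPM gives the same picture by family. The Dscams summed to 107 to 132 TPM in +/+, 111 to 118 TPM in Cre/+ and 108 to 128 TPM in Cre/Cre. The Sidekicks summed to 18.2 to 24.9, 18.0 to 20.3 and 18.2 to 20.3 TPM. The contactins summed to 140 to 173, 158 to 168 and 126 to 156 TPM, with the lowest sum in Cre/Cre replicate 1. Genotypes overlapped in all sums except that the contactins were lower in each Cre/Cre library than in each Cre/+ library. Of all single genes, 12% did not overlap in that comparison. The slopes per allele were -1.76 TPM for the Dscams (exact permutation p = 0.637) and -0.837 TPM for the Sidekicks (exact permutation p = 0.426). That of the contactins was -3.92 TPM (exact permutation p = 0.552).

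Some members had like patterns over the libraries, and the negative correlations between members were weak, with -0.35 as the lowest. Over the 9 libraries, the closest other member by Pearson r of log2(TPM + 1) was *Cntn2* for *Cntn1* (r = 0.89), *Dscam* for *Dscaml1* (0.78), *Dscam* for *Sdk2* (0.76), *Sdk2* for *Sdk1* (0.51), *Sdk1* for *Cntn5* (0.40) and *Cntn2* for *Cntn3* (0.35). Each of these is the highest r of that gene among the other members, and no background was set beside it. The lowest values were -0.35 (*Cntn6* with *Sdk1*), -0.34 (*Cntn3* with *Cntn6*) and -0.33 (*Cntn5* with *Cntn3*). All correlations rest on the same 9 libraries, and *Cntn1* and *Cntn2* share their low value in Cre/Cre replicate 1. Among all tested genes, the closest patterns were those of *Aasdh* to *Dscam* (r = 0.95), *Specc1l* to *Dscaml1* (0.98), *Tmem201* to *Sdk1* (0.97) and *Supt4a* to *Sdk2* (0.97). For 5 of the contactins they were *Fam192a* (*Cntn2*, 0.98), *Stamos* (*Cntn3*, 0.96), *Selenoi* (*Cntn4*, 0.97), *Armc6* (*Cntn5*, 0.91) and *Lipa* (*Cntn6*, 0.96). Each was picked as the highest r over all genes tested, from 9 libraries, and is given as a description only.

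Proteins known to bind contactins are their receptors and partners in adhesion. Of 16 genes for such proteins, 14 were tested and 0 were called in either knock-in genotype. The highest were the amyloid precursor family genes *Aplp2* (906 TPM), *App* (410 TPM) and *Aplp1* (266 TPM). At an unadjusted p under 0.05 there was 1 in Cre/+ and 3 in Cre/Cre, all lower, and 0 in Cre/Cre against Cre/+. For all genes, the shares at this limit were 10.7% in Cre/+, 6.97% in Cre/Cre and 6.58% in Cre/Cre against Cre/+, against which the counts of this list and the next 3 are to be read. They were *Aplp1* in both (log2 fold change -0.19 in Cre/+, adjusted p = 0.404, and -0.21 in Cre/Cre, adjusted p = 0.593, limma), *Cntnap1*, the Caspr with which *Cntn1* forms axonal junctions, in Cre/Cre (-0.27, adjusted p = 0.594, limma), and *Cntnap4* in Cre/Cre, where its value in Cre/+ was -0.36 (adjusted p = 0.467, limma). Ganglion cell markers were lower in the same libraries, 9 of 9 with a log2 fold change below 0 in Cre/Cre and 7 of 9 at an unadjusted p under 0.05, and their part in these values was not tested.

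The MAGI scaffolds, which bind the tails of Sidekicks and Dscams, were at 69.4 (*Magi1*), 46.1 (*Magi3*) and 22.0 TPM (*Magi2*), with 0 of 3 at an unadjusted p under 0.05 against +/+. *Magi3* had the smallest p, with log2 fold changes of 0.17 in Cre/+ (adjusted p = 0.467, limma) and -0.08 in Cre/Cre. For Cre/Cre against Cre/+ it had -0.25, with an adjusted p of 0.7 in limma, and was the 1 of 3 scaffolds at an unadjusted p under 0.05. *Magi1* had 0.09 in Cre/+ and -0.05 in Cre/Cre. Of 11 genes of the netrin pathway, which shares a ligand with Dscam, 10 were tested and 0 called. The highest were *Neo1* (53.2 TPM), *Pak1* (41.2 TPM) and the netrin receptor *Unc5a* (32.2 TPM). *Unc5a* was the 1 gene at an unadjusted p under 0.05, in Cre/+ (log2 fold change -0.28, adjusted p = 0.377, limma), and was followed by *Unc5b* in Cre/+ (-0.25) and *Ntn4* in Cre/Cre (-0.22).

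Of 18 other adhesion and guidance genes of plexiform layer targeting, such as semaphorins, plexins and cadherins, all were tested and 0 called. The highest were *Jam2* (105 TPM), *Igsf9* (87.5 TPM) and the plexin *Plxna2* (56.9 TPM). *Jam2* is known as a marker of a ganglion cell type, but which cells gave its level in whole retina was not tested. At an unadjusted p under 0.05, *Jam2* was higher in Cre/+ (log2 fold change 0.17, adjusted p = 0.46, limma) and *Igsf9* lower in Cre/Cre (-0.26, adjusted p = 0.594, limma). In Cre/Cre against Cre/+ there were 2 of 18, both lower, *Jam2* (-0.19) and the cadherin *Cdh10* (-0.31), each with an adjusted p of 0.74 in limma; *Cdh10* is named after its value was seen. *Sema5b*, whose product repels inner retinal neurites, had -0.23 in Cre/+, and *Sema6a*, the ligand of *Plxna2* and *Plxna4*, had -0.20 in Cre/Cre.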

How the data were processed

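Per the labels and the study's methods, the authors made strand-specific poly(A) libraries, read them as pairs of 150 bases, trimmed with Trimmomatic, used HISAT2 for alignment to mm10, and obtained gene levels from StringTie; versions and annotation are not given in the sources used here. The deposited tables hold coverage, FPKM and TPM and no counts, so the authors' DESeq2 test could not be repeated. TPM were summed by gene name, and the 15198 genes with a mean of at least 1 TPM were tested with limma 3.58.1 (R 4.3.3, trend and robust prior) on log2(TPM + 1), all 9 libraries in 1 model, Benjamini-Hochberg adjusted over all genes, at a limit of 0.05. The median SE over all genes was 0.11. Aligned gigabases are the common ratio of coverage to FPKM, and counting error per gene is unknown. Single values were tested by exact permutation in Python 3.11.15 (scipy 1.17.1). The scripts were tested on simulated data with the means and spread of these libraries. Of 200 genes lowered in Cre/Cre, limma called 0 at 1.2-fold, 102 at 1.5-fold and 164 at 2-fold. Small changes of the members, and also some of 1.5-fold or 2-fold, could thus have gone uncalled. The named genes are all 10 members, *Rbpms*, per pathway list the 3 highest and the 2 lowest p-values against +/+ in each knock-in genotype, and the closest genes by r (that of *Cntn1* is not reported here). The members and lists were chosen with earlier results of these data known. Alternatives were a pseudocount of 0.1, no filter, median-ratio scaling, FPKM, a replicate block, *Xist* as covariate, only the genotypes compared, no robust prior, each library left out and, chosen after seeing the data, coverage per gigabase.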

Additional observations from a re-analysis of the deposited data

How the results depend on the processing

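In the 18 alternatives for each pair of genotypes and the 17 for the trend, 0 of the 10 genes were called. At an unadjusted p under 0.05, 0 to 2 passed in Cre/+ and 1 to 2 in Cre/Cre against Cre/+. With the replicate block 0 were called, and *Cntn6* in Cre/+ had an adjusted p of 0.49 (limma). Deviations of same-numbered libraries correlated between -0.12 and 0.13 and those of others between -0.19 and 0.26. The same-numbered values lay within the range of the others, and whether the numbers mark litters was not tested. With coverage in place of TPM the level difference (log2) of *Cntn1* to *Cntn4* was -0.82 and that of *Cntn4* to *Dscam* -0.11, and the cause was not tested. With *Xist* as covariate, log2 fold changes near 0 turned to 0.0022 (*Dscam*, Cre/+) and 0.028 (*Cntn6*, Cre/Cre), and in Cre/Cre *Cntn5* moved from -0.05 to -0.23 and *Cntn3* from 0.14 to 0.30.

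Leaving out 1 library at a time turned the sign of other values near 0, none of which was called. Against +/+, log2 fold changes in Cre/+ ranged from -0.10 to 0.10 (*Dscam*), -0.15 to 0.031 (*Sdk2*), -0.00028 to 0.13 (*Cntn1*) and -0.21 to 0.035 (*Cntn5*). In Cre/Cre they ranged from -0.16 to 0.034 (*Dscam*), -0.11 to 0.026 (*Dscaml1*), -0.19 to 0.043 (*Sdk1*), -0.17 to 0.026 (*Cntn1*), -0.21 to 0.021 (*Cntn2*), -0.13 to 0.082 (*Cntn4*), -0.10 to 0.026 (*Cntn5*) and -0.15 to 0.0033 (*Cntn6*). The level of *Sdk2* minus *Sdk1* ranged from -0.029 to 0.037. Slopes per allele ranged from -0.034 to 0.0060 for *Dscam* minus *Dscaml1*, from -0.013 to 0.041 for *Sdk1* minus *Sdk2*, and in TPM from -4.61 to 1.18 (Dscams), -1.44 to 0.106 (Sidekicks) and -8.03 to 1.71 (contactins).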
